A study of Mus musculus with 4 samples.

Results

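The 40 genes described here are p53, 19 genes of its transcriptional programme, 10 members of the BCL2 family, and 10 caspases and caspase regulators, out of 28095 gene names on the array. They were chosen by gene symbol, and each was read from the probe with the highest mean signal. Of the 40, 39 passed the filter on dim probes. Bik, a BH3-only member of the BCL2 family, was not well above background on any of the 4 arrays and was not tested.

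The samples were wild type primary mouse embryonic fibroblasts of strain C57BL/6, transfected with an siRNA against Xpo5 (2 samples) or a negative control siRNA (2 samples), each at 60 nM. Xpo5 encodes Exportin-5, which carries hairpin precursors of microRNAs out of the nucleus. Cells of both groups were kept for 12 h after transfection, starved in 0.2% serum for 48 h, and given 20% serum for 24 h together with a further transfection of the same kind, so that every array reads fibroblasts that had been driven back towards the cell cycle. The series comprised 2 independent experiments, and arrays with the same replicate number are called experiment 1 and experiment 2 here, a reading that the series text allows and no label states outright.

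p53 is a transcription factor that is kept low by the ubiquitin ligase MDM2 and its relative MDM4, and that after DNA damage or other stress turns on genes for growth arrest, repair and cell death. Several of its targets act at the mitochondrion, where BH3-only proteins such as PUMA, NOXA and BIM neutralise the survival proteins BCL2, BCL-XL and MCL1 and so free BAX and BAK to open the outer membrane. Cytochrome c then assembles with APAF1 and caspase-9, while death receptors act through caspase-8, and the IAP proteins and FLIP hold the caspases in check. Primary fibroblasts keep this system intact, and it limits their growth in culture.

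Levels are log2 signals relative to the 75th percentile of the same array, so that 0 is the level of a probe at that percentile, and differences are Xpo5 siRNA minus control siRNA with the SE of the limma fit. Xpo5 itself checked the labels. It stood at -1.95 and -1.93 in the Xpo5 siRNA samples, against 1.31 and 1.26 in the control siRNA samples. The difference of -3.23 ± 0.13 left 10.7% of the control level and passed the test, with a limma adjusted p of 0.0217. Only 2 of 16920 genes passed, which is 0.0118%. These were Xpo5 and Ugt2b38, and Ugt2b38 was at least 2.58-fold higher and not well above background in the control samples. With the replicate number as a block 5 genes passed, or 0.0296%, of which 1 was higher and 4 were lower. The Xpo5 call was lost with the slide as block (adjusted p of 0.0608) and without Xpo5 siRNA replicate 1, Xpo5 siRNA replicate 2 or control siRNA replicate 1, while its difference stayed between -3.25 and -3.20. The 15 fibroblast markers were all measured, with a summed linear signal (in units of the 75th percentile) of 2615 and 2459 in the Xpo5 siRNA samples and 2419 and 2181 in the control samples. Of these markers 11 had positive and 4 had negative differences, with a median of 0.05 and a lowest value of -1.24. By contrast, 4 of 8 endothelial markers, among them Pecam1 and Cdh5, and 3 of 8 epithelial markers, among them Epcam and Cdh1, were not well above background. The 4 measured endothelial markers had a median difference of 0.40, with 3 of them positive and a highest value of 1.19, and a summed linear signal of 1.04 and 1.02 in the Xpo5 siRNA samples against 0.846 and 0.903 in the control samples. The 5 measured epithelial markers had a median of -0.0095, with 2 positive, and summed to 9.21 and 8.84 in the Xpo5 siRNA samples against 8.95 and 7.83 in the control samples. The part of these cell types in the results was not tested.

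None of the 39 measured members passed an adjusted p of 0.05, against the 0.0118% of all genes. The smallest adjusted p among them was 0.258, and 0.0980 with the replicate block, both for Pmaip1. Among genes with an official RefSeq symbol and with the block, where 4.36% of genes passed, 0 members did. At an unadjusted p under 0.05 the members held 2 genes with higher signal, Bbc3 and Bmf, and 2 with lower signal, Pmaip1 and Rrm2b, where 13.2% of all genes met the same criterion, 7.85% higher and 5.34% lower. With the replicate block 6 members were higher and 4 lower at this unadjusted p, against 14.1% and 11.0% of all genes, 25.1% together. The arrays of the 2 groups did not overlap for 9 members above and 10 below the controls, against 23.6% and 22.5% of all genes, 46.1% together. An absolute difference over 0.5 was seen for 3 of 39 members and for 12.8% of all genes. The median difference was 0.01 over the 39 members and 0.0038 over all genes, whose middle quartiles ran from -0.17 to 0.20. The 2 samples per group limit what could be seen: the SE of a member ran from 0.13 to 0.41, and where RNA of a cell mixture is measured, fewer cells of a type and less RNA per cell cannot be told apart.

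**Figure D1:**
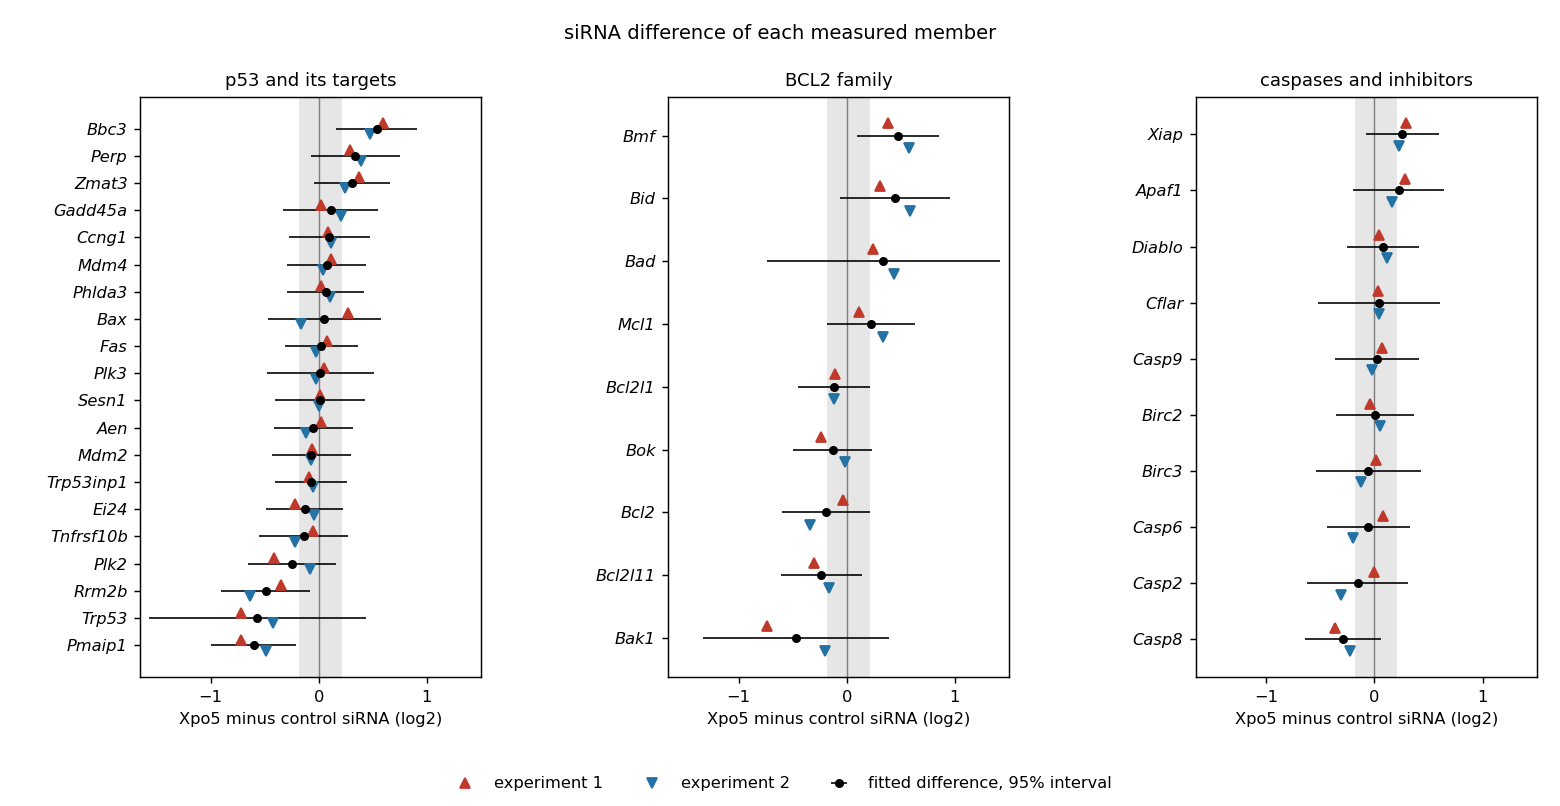
Difference of each of the 39 measured members, Xpo5 siRNA minus control siRNA, in log2 units, in 3 panels for p53 and its targets, the BCL2 family, and the caspases and inhibitors. Black points are fitted differences with their 95% interval, triangles are the differences within experiment 1 and experiment 2, and the grey band spans the middle quartiles of all genes tested, -0.17 to 0.20; the members farthest from the band are Bbc3, Bmf and Bid at its right and Pmaip1, Trp53, Rrm2b and Bak1 at its left.

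Many p53 targets carry the response element that p53 binds as a tetramer, and 33 of the members had a promoter window in the RefSeq table of assembly GRCm38.p6. The 250 bases before each gene's start were searched for the p53 response element, taken as 2 adjacent copies of its 10-base consensus motif with at most 3 mismatches in the 20 bases. The consensus is its own reverse complement, so that 1 scan covers both strands and matches to each strand overlap fully. A match was found for 1662 of 27025 genes, or 6.15%. Among the members 9 of 33, or 27.3%, held one: 8 of 14 in the list of p53 and its targets, 0 of 9 BCL2 family genes, and 1 of 10 caspases and inhibitors. Genes with several annotated starts had more windows to match in. The 9 matches are shown so that each count can be read against its letters. They run 5′ to 3′ along the gene's strand, with capitals for the bases that match the consensus and positions on GRCm38.p6.
Ccng1 (chr11:40755462-40755481, minus strand, 1 mismatch): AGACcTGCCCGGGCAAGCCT
Trp53 (chr11:69580284-69580303, plus strand, 3 mismatches): GGACTTGCCCttACTTGTTa
Mdm4 (chr1:133025626-133025645, minus strand, 3 mismatches): AGGtATGCTgtGGCAAGCCT
Bbc3 (chr7:16309486-16309505, plus strand, 3 mismatches): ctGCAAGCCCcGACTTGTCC
Bax (chr7:45467090-45467109, minus strand, 3 mismatches): AGcaTAtCCCAGGCAAGCTT
Gadd45a (chr6:67037632-67037651, minus strand, 3 mismatches): AAACTAcCTaGAGCTgGCTC
Sesn1 (chr10:41887266-41887285, plus strand, 3 mismatches): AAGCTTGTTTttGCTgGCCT
Aen (chr7:78895937-78895956, plus strand, 3 mismatches): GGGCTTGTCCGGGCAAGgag
Birc2 (chr9:7837228-7837247, minus strand, 3 mismatches): GGGaAAGCCTAGcCTTaTTC
Ccng1 held the only match among the members with 1 mismatch, a quality found in 0.0925% of all genes. A match is a description of these letters and not a measurement of binding, and many elements that p53 is known to use lie in introns outside this window.

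The promoter windows of Ccng1 and Bbc3 are given in full, as the closest match and as the target with the largest positive difference, with the matched 20 bases in capitals and positions on GRCm38.p6.
Ccng1 (chr11:40755287-40755536, minus strand): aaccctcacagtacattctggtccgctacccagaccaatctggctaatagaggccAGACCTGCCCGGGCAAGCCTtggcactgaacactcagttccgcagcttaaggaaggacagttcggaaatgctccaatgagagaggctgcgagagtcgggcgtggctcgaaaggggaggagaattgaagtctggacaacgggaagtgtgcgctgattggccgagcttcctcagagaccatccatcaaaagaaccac
Bbc3 (chr7:16309333-16309582, plus strand): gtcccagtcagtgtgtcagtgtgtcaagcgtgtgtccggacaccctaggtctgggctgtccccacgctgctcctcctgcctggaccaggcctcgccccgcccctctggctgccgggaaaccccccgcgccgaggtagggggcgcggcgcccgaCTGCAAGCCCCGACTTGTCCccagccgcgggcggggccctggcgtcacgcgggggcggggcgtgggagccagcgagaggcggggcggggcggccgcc
The siRNA differences of the 9 genes with a match did not run in one direction. They extended from -0.57 for Trp53 and -0.05 for Aen through values between 0.01 and 0.11 for Birc2, Sesn1, Bax, Mdm4, Ccng1 and Gadd45a to 0.54 for Bbc3.

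Among p53 and its regulators, the transcript of p53 gave the most variable reading. Trp53, measured at chr11:69403134-69403193 (mm9, plus strand), was at 1.40 and 0.76 in the Xpo5 siRNA samples, against 2.12 and 1.18 in the control samples. The groups overlapped, since the Xpo5 siRNA array of experiment 1 was brighter than the control array of experiment 2. The difference of -0.57 ± 0.39 had a 95% interval from -1.57 to 0.43 and a limma adjusted p of 0.575. Within the experiments it was -0.72 and -0.42, while within the slides, each of which held 1 array of each group, it was 0.22 and -1.36. The sequence of the probe that gave these values is shown because a probe farther upstream read the same gene differently.
Trp53 downstream probe (chr11:69403134-69403193, mm9, plus strand): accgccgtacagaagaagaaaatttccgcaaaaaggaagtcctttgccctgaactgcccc
The upstream probe, at chr11:69393959-69394017, read 0.99 and 0.94 in the Xpo5 siRNA samples, against 0.88 and 0.96 in the control samples. It differed by 0.05, so that the array gives p53 mRNA no single direction.

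Mdm2, the ubiquitin ligase that p53 induces and that degrades p53, was at 2.91 and 3.04 in the Xpo5 siRNA samples and at 2.97 and 3.11 in the control samples. Its 95% interval, from -0.44 to 0.30 around a difference of -0.07, bounds any change at these arrays' precision. Mdm4, which binds p53 and blocks its activation domain, differed by 0.07 ± 0.14. Ccng1, cyclin G1 and one of the most responsive p53 targets in mouse cells, stood at 4.67 and 4.83 in the Xpo5 siRNA samples and 4.58 and 4.72 in the control samples, a difference of 0.10 ± 0.15. In each of these 3 genes the siRNA groups overlapped, and in Mdm2 and Ccng1 the arrays of one experiment lay closer to each other than the arrays of one siRNA.

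The BH3-only genes that p53 induces, Bbc3 and Pmaip1, gave the largest differences among the targets of p53, and they ran in opposite directions. Bbc3 encodes PUMA, which binds every survival protein of the BCL2 family. Its signal was 2.07 and 2.14 in the Xpo5 siRNA samples, against 1.47 and 1.67 in the control samples. Both treated arrays lay above both control arrays, by 0.60 in experiment 1 and 0.47 in experiment 2. The fitted difference of 0.54 ± 0.14, a 1.45-fold signal, had an unadjusted p of 0.0148 and a limma adjusted p of 0.273.

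Pmaip1 encodes NOXA, which acts chiefly on MCL1. It was at 2.71 and 2.96 in the Xpo5 siRNA samples, against 3.42 and 3.45 in the control samples. Both treated arrays lay below both controls. The difference was -0.72 in experiment 1 and -0.49 in experiment 2, and the slides gave -0.74 and -0.46. The difference of -0.60 ± 0.15 left 65.9% of the control signal, with an unadjusted p of 0.0111 and a limma adjusted p of 0.258. Over all alternatives the adjusted p of Pmaip1 ran from 0.0606 to 0.822 and its difference from -0.73 to -0.48.

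**Figure D2:**
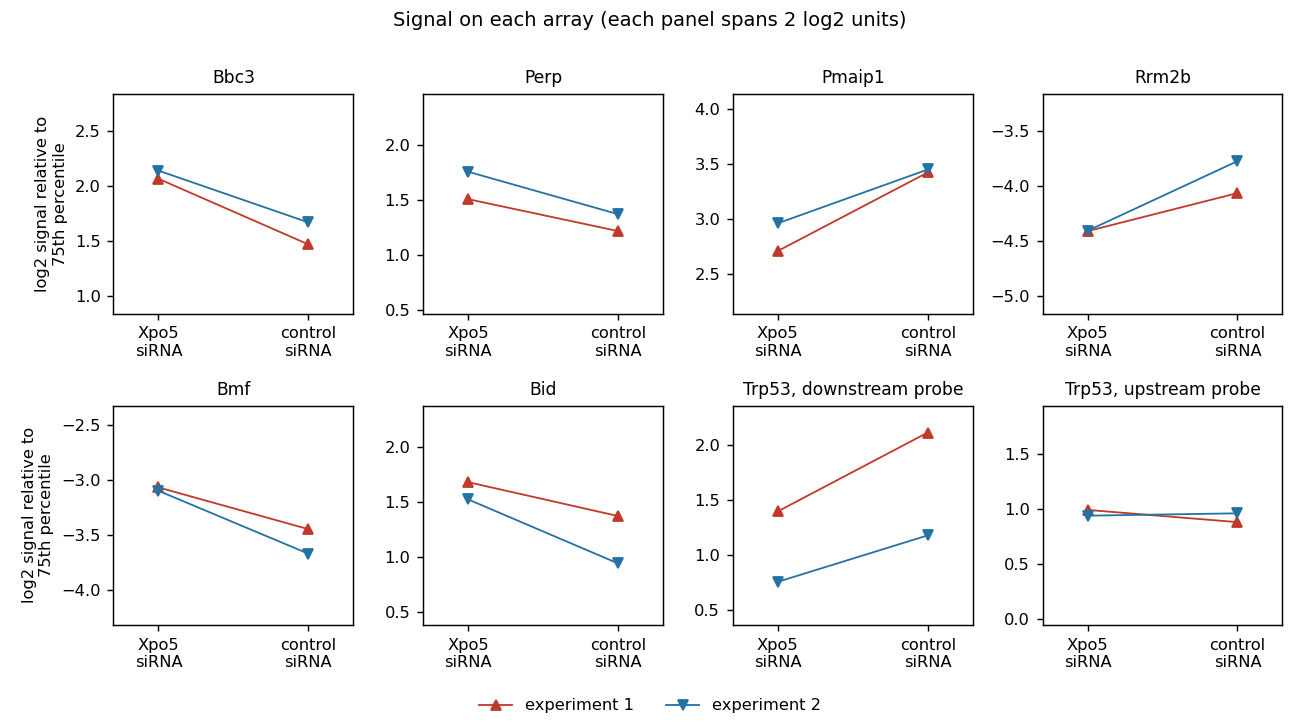
Signal of 7 members on each of the 4 arrays, in log2 units relative to the array's 75th percentile, with the Xpo5 siRNA arrays at the left and the control arrays at the right of each panel, every panel spanning 2 log2 units, and lines joining the arrays of one experiment. Bbc3, Perp, Bmf and Bid slope down towards the control and Pmaip1 and Rrm2b slope up in both experiments, while the downstream probe and the upstream probe of Trp53 give different pictures.

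Among the other death-promoting targets no difference passed the test. Bax, the effector that forms the mitochondrial pore, was at 3.19 and 3.25 in the Xpo5 siRNA samples and at 2.92 and 3.41 in the control samples, so that both treated values lay between the controls. Fas, a death receptor, differed by 0.02 ± 0.13, and Tnfrsf10b, the receptor for TRAIL, by -0.14 ± 0.16. Perp, a membrane protein of desmosomes that p53 also uses in cell death, was at 1.51 and 1.76 in the Xpo5 siRNA samples, against 1.22 and 1.37 in the control samples. The groups of Perp did not overlap, and its difference of 0.34 ± 0.16 had a limma adjusted p of 0.444. Aen, a nuclease of dying cells, differed by -0.05 and Ei24, a protein of the endoplasmic reticulum, by -0.13.

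The targets that serve arrest, metabolism and repair were led by Rrm2b, a subunit of ribonucleotide reductase that supplies nucleotides for DNA repair. Rrm2b was dim, at -4.41 and -4.41 in the Xpo5 siRNA samples, against -4.06 and -3.77 in the control samples. Its arrays did not overlap, and the difference of -0.49 ± 0.16 had an unadjusted p of 0.0278 and a limma adjusted p of 0.318. With normexp background correction it was -0.20. That setting adds an offset of 50 to every signal, which by itself shrinks the differences of dim probes. Zmat3, an RNA-binding zinc finger protein, was at 3.50 and 3.49 in the Xpo5 siRNA samples, against 3.12 and 3.25 in the control samples. This difference of 0.31 ± 0.13 did not pass, with an adjusted p of 0.423. Plk2, a polo-like kinase, differed by -0.25 ± 0.16, with both treated arrays below both controls. Gadd45a, Sesn1, Trp53inp1, Phlda3 and Plk3 differed by between -0.07 and 0.11. Of these, Gadd45a acts in growth arrest, Sesn1 restrains mTORC1 and Phlda3 restrains AKT. Phlda3 was at 6.83 and 6.77 in the Xpo5 siRNA samples and at 6.81 and 6.66 in the control samples, with a 95% interval of its difference from -0.29 to 0.42.

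Over the 20 genes of p53 and its targets, 11 differences were positive and 9 negative, with a median of 0.01. Under median scaling, which shifts the median of all genes by -0.11, the median of this list was -0.09, so that no direction is given to it. The 2 experiments gave medians of 0.02 and -0.03, and the slides -0.08 and 0.02. For 9 of the 20 genes the gap between the experiments was larger than the siRNA difference in both groups. The same held for 14 of the 39 measured members and for 6115 of 16920 genes.

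The BCL2 family held differences of both signs. Its 9 measured members had 4 positive and 5 negative differences, and 3 lay above and 4 below the controls on every array (23.6% and 22.5% of all genes). The median of -0.11 turned to 0.03 with the mean over each gene's probes. The positive differences and the median include Bad, whose brightest probe lay on the strand opposite to the gene. Of the survival genes, Bcl2 differed by -0.19 ± 0.16 and Bcl2l1, which encodes BCL-XL, by -0.11 ± 0.13. Mcl1, a short-lived survival protein that NOXA antagonises, was at 4.50 and 4.44 in the Xpo5 siRNA samples, against 4.39 and 4.11 in the control samples, a difference of 0.23 ± 0.16. Its 2 probes gave 0.23 and -0.12.

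BH3-only genes of the family also ran both ways. Bmf, which senses damage to the cytoskeleton, was dim, at -3.07 and -3.10 in the Xpo5 siRNA samples, against -3.45 and -3.67 in the control samples. Both treated arrays were above both controls, and the difference of 0.48 ± 0.15 had an unadjusted p of 0.0236 and a limma adjusted p of 0.301. With normexp background correction, whose offset of 50 by itself shrinks the differences of dim probes, it was 0.25. Bid, which links death receptors to mitochondria once caspase-8 has cut it, was at 1.68 and 1.52 in the Xpo5 siRNA samples, against 1.37 and 0.94 in the control samples. Its difference of 0.45 ± 0.19 (limma adjusted p of 0.424) was 0.31 in experiment 1 and 0.58 in experiment 2. On one slide it was 0.74 and on the other 0.15. Bad, which growth factor signalling keeps inactive, had its brightest probe on the strand opposite to the gene, so that the value of 0.34 ± 0.41 may not be Bad mRNA. Its probe on the gene's own strand read -4.77 and -3.78 in the Xpo5 siRNA samples, against -6.07 and -3.86 in the control samples. The control array of experiment 1 was not well above background, so that its fitted difference of 0.69 rests on a value not measured above background.

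Bcl2l11 encodes BIM, which is induced in fibroblasts deprived of growth factors. Its brightest probe was at 1.09 and 1.02 in the Xpo5 siRNA samples, against 1.39 and 1.18 in the control samples, a difference of -0.23 ± 0.15. A probe of 60 bases whose listed position spans chr2:127972893-127983988 (mm9, plus strand) is shown because it gave a larger difference.
Bcl2l11 spanning probe: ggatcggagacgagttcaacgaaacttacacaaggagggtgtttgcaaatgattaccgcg
This probe read -2.83 and -2.97 in the Xpo5 siRNA samples, against -2.14 and -2.26 in the control samples. Both treated arrays were below both controls, with a difference of -0.69 in experiment 1 and -0.71 in experiment 2, and the probe's unadjusted limma p was 0.0062. It was named after its values were seen, and with every kept probe tested on its own no probe of any gene passed. Bcl2 showed a like split of probes: the brightest gave -0.19 and the 2 others -0.47 and -0.52.

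Of the pore-forming members, Bak1 was at 2.89 and 2.55 in the Xpo5 siRNA samples, against 3.63 and 2.75 in the control samples. The groups overlapped. The experiments gave -0.74 and -0.20, the slides gave 0.15 and -1.09, and the other Bak1 probe read 0.17 where the brightest read -0.47 ± 0.33. Bok, a BAX relative, differed by -0.13 ± 0.14.

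The 10 caspases and caspase regulators were all measured and had the narrowest range, from -0.29 for Casp8 to 0.26 for Xiap. Casp8, the initiator at death receptors, was at 1.82 and 1.81 in the Xpo5 siRNA samples, against 2.18 and 2.03 in the control samples. Both treated arrays were below both controls, and the difference of -0.29 ± 0.14 had a limma adjusted p of 0.443. Xiap, a direct inhibitor of caspases, was at -2.20 and -2.18 in the Xpo5 siRNA samples, against -2.49 and -2.41 in the control samples. The difference of 0.26 ± 0.13 had an adjusted p of 0.474, and the other 2 Xiap probes gave 0.39 and 0.49. Normexp background correction, whose offset of 50 by itself shrinks the differences of dim probes, gave 0.11. Apaf1, the scaffold of the apoptosome, differed by 0.22 ± 0.16, and its 3 probes were all positive.

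Casp9, which Apaf1 activates, differed by 0.02, and Diablo, the mitochondrial antagonist of the IAPs, by 0.08. The IAPs Birc2 and Birc3 gave 0.01 and -0.06, and Cflar, the FLIP that blocks caspase-8, 0.04. Casp2 and Casp6 gave -0.16 and -0.06. The 95% intervals of all 10 genes of the group included 0. The median of the 10 genes was 0.01, with 0.04 and 0.01 in the experiments and 0.08 and -0.05 on the slides, and it turned to -0.09 under median scaling.

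**Figure D3:**
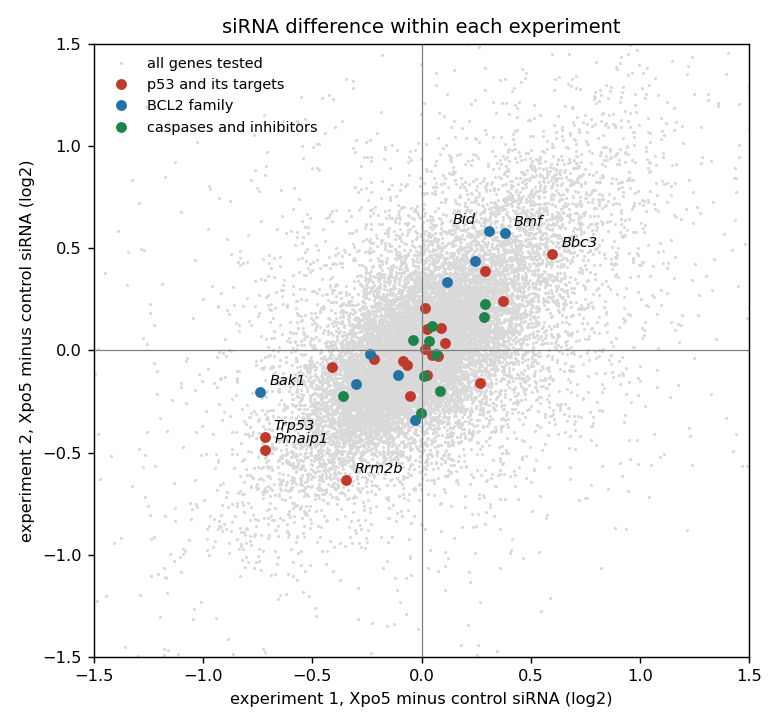
Difference between the siRNAs within experiment 1 (horizontal axis) and experiment 2 (vertical axis), in log2 units, for all genes tested (grey; 235 genes lie outside the axes) and for the 39 measured members, coloured by group. The members lie within the grey cloud, and 31 of 39 have the same sign in both experiments, against 70.3% of all genes.

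Where a member had several probes, their differences could have different signs, and the share over all genes was not taken. The 40 genes were covered by 74 probes, of which 72 were kept. Of the 21 members with more than 1 kept probe, 12 had probes of both signs: Aen, Bak1, Bcl2l1, Ccng1, Cflar, Fas, Mcl1, Mdm2, Mdm4, Tnfrsf10b, Trp53 and Trp53inp1. The brightest probe of Aen gave -0.05 and the other 0.32, and those of Ccng1 gave 0.10 and -0.14. For Mdm2 they gave -0.07 and 0.23, for Trp53inp1 -0.07 and 0.23, and for Fas 0.02 and -0.03. For Aen, Ccng1, Mdm2, Trp53inp1 and Fas both differences were smaller than their SE, while the brightest probes of Trp53, Bak1 and Mcl1 exceeded theirs. Bcl2l1 had probes at -0.11, -0.15 and 0.36, Tnfrsf10b at -0.14, -0.04 and 0.18, Mdm4 at 0.07, -0.22, -0.18 and 0.15, and the 6 probes of Cflar ran from -0.13 to 0.39. The fitted differences of the probes of Apaf1, Bad, Bcl2, Bcl2l11, Bmf, Diablo, Sesn1, Xiap and Zmat3 each had a single sign. Within the experiments signs could still differ. The dimmer Zmat3 probe read 1.83 in experiment 1 and -0.46 in experiment 2. A Sesn1 probe well above background on only 3 arrays read 1.34 and -0.09. The probes of Bad lie on opposite strands and may not read the same transcript.

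**Figure D4:**
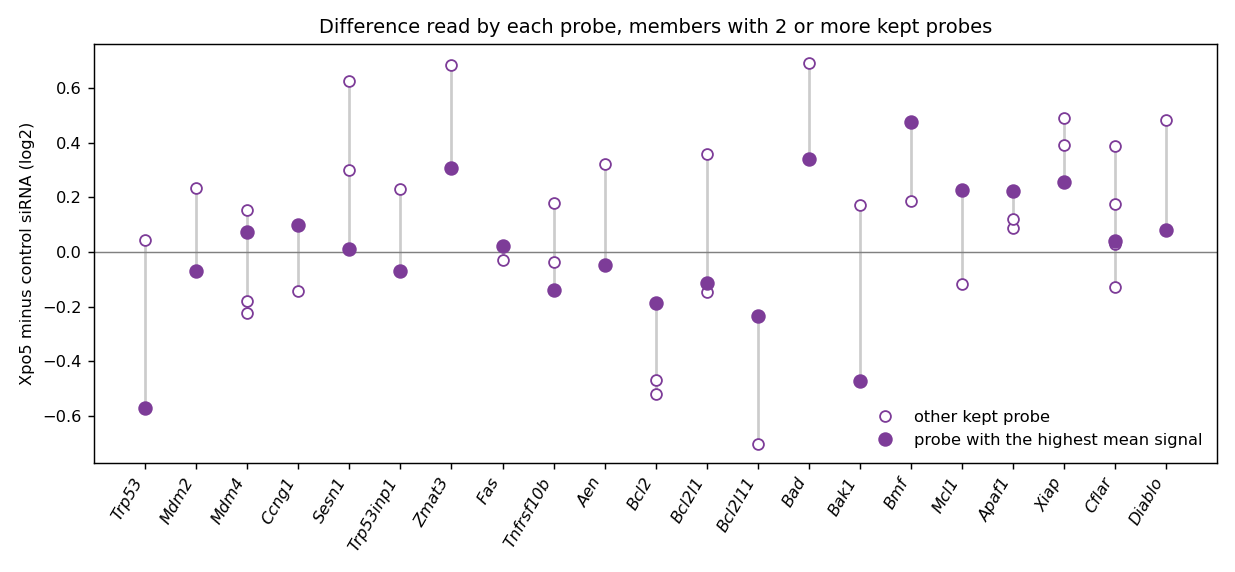
Difference between the siRNAs read by each kept probe, in log2 units, for the 21 members with more than 1 kept probe; filled points are the probe with the highest mean signal, open points the other probes. In 12 members the points lie on both sides of 0.

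The gap between the experiments differed between probes far from and near to the 3′ end of a gene. In 20 members at least 2 kept probes lay on one strand, and the probe farthest from the 3′ end was set against the one nearest to it. The gap between the experiments, experiment 1 minus experiment 2, was lower at the far probe in 14 of the 20 members for Xpo5 siRNA and in 14 of the 20 for control siRNA. Over the 6007 genes that allow the same comparison it was lower for 70.1% with Xpo5 siRNA and 72.3% with control siRNA, with median gaps at the far probe of -0.10 and -0.14, and at the near probe of 0.07 and 0.11. The far probe of Sesn1 read -4.91 and -4.36 in the Xpo5 siRNA samples, against -6.25 and -4.27 in the control samples, where the control array of experiment 1 was not well above background. At the far probe of Mdm2 the Xpo5 siRNA samples read -0.08 and 0.78 and the control samples -0.42 and 0.65, with both arrays of experiment 1 below both of experiment 2. The siRNA difference was higher at the far than at the near probe in 12 of the 20 members and in 56% of the genes. This comparison was added after the probe values were seen, and its part in the differences of single probes was not tested. The probes were ordered by genomic position and not matched for signal level, so that position and signal level cannot be told apart here.

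Of 34 other genes of the p53 pathway 30 were measured, 12 with positive and 18 with negative differences, a median of -0.04 and none past the test. Cdkn1a, which encodes the cell cycle inhibitor p21 and is the best known p53 target, was at 4.86 and 4.56 in the Xpo5 siRNA samples, against 5.35 and 4.83 in the control samples. The groups overlapped at a difference of -0.38 ± 0.23 (limma adjusted p of 0.541). Within the experiments Cdkn1a differed by -0.48 and -0.27, within the slides by 0.03 and -0.79, and with the replicate block the adjusted p was 0.164. Of the 30 measured genes, 1 was higher and 5 were lower at an unadjusted limma p under 0.05. Over all genes these shares were 7.85% and 5.34%. The 5 genes with the smallest p had negative differences. Btg2, an antiproliferative target, differed by -0.55 ± 0.13, the damage kinase Atm by -0.56 ± 0.15, the spindle protein Ckap2 by -0.46 ± 0.14, the phosphatase Ptp4a3 by -0.54 ± 0.17, and the checkpoint kinase Chek1 by -0.64 ± 0.22. Btg2 stood at 1.54 and 1.46 in the Xpo5 siRNA samples, against 2.08 and 2.02 in the control samples, and had an adjusted p of 0.245. Chek1 differed by -0.70 in experiment 1 and -0.58 in experiment 2, and by -0.26 on slide 1 and -1.02 on slide 2.

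Of 36 other apoptosis genes 29 were measured, 11 with positive and 18 with negative differences and a median of -0.07. None passed. Dffa, the inhibitor of a nuclease that cuts DNA in dying cells, differed by -0.40 ± 0.16, and Birc5, survivin, which peaks in mitosis, by -0.40 ± 0.17. The translation inhibitor Pdcd4 differed by 0.49 ± 0.18.

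Casp1, the inflammatory caspase of myeloid cells, was at -2.28 and -2.69 in the Xpo5 siRNA samples, against -3.08 and -3.52 in the control samples, a difference of 0.81 ± 0.23 (adjusted p of 0.285). Within the experiments Casp1 differed by 0.80 and 0.83, and within the slides by 1.24 and 0.39. Macrophage markers stood on the same side. All 14 measured of 15 macrophage markers had positive differences, with a median of 0.65 and none past the test, and their summed linear signal was 84.1 and 71.9 in the Xpo5 siRNA samples against 60.1 and 42.8 in the control samples. The median of these markers was 0.50 in experiment 1 and 0.78 in experiment 2, and 1.03 on slide 1 and 0.17 on slide 2. Their part in the Casp1 value was not tested.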

How the data were processed

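RNA from 4 fibroblast samples, 2 per siRNA, was read on Agilent arrays of 1 colour (Cy3), per the labels' protocols. Spot intensity, with background subtracted and spatial trend removed, was, per the file headers, the output of Agilent Feature Extraction 10.5.1.1. The authors' table is on a log2 scale. Between 99.7% and 99.8% of its values were within 0.001 of the log2 processed signal plus a constant for each array. The median was 5.33 on the first array, the only one for which it was taken. The direction of the authors' table is thus known and its genes were not centred.

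Of 43379 non-control spots per array, 77 to 134 were outliers and left out, and 0 were saturated. Between 62.4% and 65.0% were well above background. Spots were averaged to 41174 probes on log2 of the processed signal minus each array's 75th percentile. Probes well above background on both arrays of a group, 25641, gave 16920 of 28095 gene names, 1 probe each. The siRNAs were compared with limma 3.58.1 in R 4.3.3 (lmFit and eBayes, two-sided, Benjamini-Hochberg over all genes), after the code was tested on simulated data. The smallest exact permutation p with 2 arrays against 2 is 0.333, so none was run. A fold against a group not above background is a lower bound, from the lowest signal well above background on each array or the probe's own if higher.

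Members and lists were chosen with earlier results of these data known, so no p is given over a list. Named are all members, Xpo5, Cdkn1a, and of each other pathway list the 5 genes with the smallest unadjusted p, of which 1 is not reported here. Arrays of one replicate number deviated together from their groups (r = 0.419), over 16912 genes, which are not independent, and the series text names 2 experiments; the replicate block was an alternative. Slide 1 held Xpo5 siRNA replicate 1 and control replicate 2. The labels do not say whether experiments used different embryos, so the p values cover only the spread among these 4 samples. Probe positions are on mm9 per the file headers; promoters are from RefSeq. Of the members' probes, 62 lay on the gene's strand, 1 opposite, and 11 were not checked. Pidd1, Cop1, Dyrk2, Bcl2a1a, Bcl2a1d and Adgre1 were not matched to a name on the array. Alternatives are in the closing section.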

Additional observations from a re-analysis of the deposited data

How the results depend on the processing

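None of the 39 members passed under any of the 17 alternatives, and of their 663 differences under these, 57 had the opposite sign, in 21 members, while 18 members, among them Bbc3, Pmaip1, Rrm2b, Bmf, Bid, Casp8 and Xiap, kept 1 sign. Alternatives that changed only the filter, the block, the trend or the set of genes or probes tested left a member's difference as in the reported fit. No sign could turn under these, so 57 of 663 is a lower share than among the alternatives that moved the differences. The smallest adjusted p of a member was 0.0606, for Pmaip1, among genes with an official RefSeq symbol with the replicate block, a setting chosen after seeing the data, under which 607 genes, or 4.36%, passed (415 higher and 192 lower). The number of genes passed was otherwise 5 with the replicate block, 9 after quantile normalization, 12 with median scaling and 12 in the deposited log2 table, 1 with all 4 arrays above background, 1 with an intensity trend, 1 with the mean of probes, 0 with no filter and 0 with every kept probe on its own, and 0 to 4 with an array left out; beside each 0, 13.2% of genes had an unadjusted limma p under 0.05 in the reported fit. Apart from the fewer or added genes tested, the cause was not tested. The replicate block changed no member's call. The Xpo5 difference of -3.23 lost its call with no filter (-3.23, adjusted p of 0.343), under the slide block (-3.23, 0.0608) and with every probe on its own (-3.23, 0.0654), and with the mean of probes it was -2.55 (0.188). With an array left out, which assumes that the lone array varies like the others, it was -3.25 to -3.20, and its adjusted p was 0.120 without Xpo5 siRNA replicate 1, 0.104 without replicate 2, 0.0605 without control replicate 1 and 0.0370 without control replicate 2. Median scaling shifted all genes by -0.11, and gave medians of -0.0939 for p53 and its targets, -0.220 for the BCL2 family and -0.0911 for caspases and inhibitors; the deposited table gave -0.0943, -0.221 and -0.0916. Normexp gave -0.158 for the BCL2 family and -0.00800 for the caspases, quantile normalization gave -0.0644 and the mean of probes 0.0331 for the BCL2 family. With an array left out the medians ran from -0.0900 to -0.000895 for p53 and its targets, from -0.131 to -0.0324 for the BCL2 family and from -0.0797 to 0.0954 for the caspases.

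With 2 arrays a group, their number limits the precision. Bik was not measured. Rrm2b and Bmf were dim, though well above background on all 4 arrays, and their differences were smaller with normexp background correction. The offset of 50 in that setting by itself shrinks the differences of dim probes, so the smaller values do not tell how background bears on them. The strand-matched Bad probe was well above background on only 3 arrays.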
